A study of Homo sapiens with 10 samples.

Results

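FGA, FGB and FGG encode the alpha, beta and gamma chains of fibrinogen, and SERPINA1, SERPINA3, LCN2 and HP encode further plasma or secreted proteins of the acute-phase response. These 7 genes, of 19775 with a probe set of their own, were read by 13 of the 54675 probe sets on the array, each annotated with exactly 1 gene symbol. FGA had 3 probe sets, FGB had 2, SERPINA1 had 4, and FGG, SERPINA3, LCN2 and HP had 1 each. A further probe set that names both HP and its neighbour HPR was left out. The genes were chosen by their values on these same arrays, with the rise of FGB from unsorted to sorted cells already known. Differences of sorted from unsorted cells are therefore given as a description with no test, and tests are given between the sorted populations only.

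The arrays held total RNA of cultured human gastric cancer cells, hybridised as 1 sample each. AGS and MKN 45 are established gastric carcinoma lines grown in serum-supplemented medium and detached with trypsin. Side population cells (4 arrays, replicate letters a to d) were sorted for low retention of a Hoechst dye that binds DNA, a property of cells with active efflux pumps, and non-side population cells (4 arrays, letters a to d) for retaining it. Unsorted cells (2 arrays, letters a and b) complete the set. Both lines are given as the origin of every array. The source field specifies AGS for 8 arrays and no line for side population replicates a and b. The labels do not say whether replicates were separate cultures, so p-values describe the spread between these arrays, which may be technical.

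The acute-phase response is the change in plasma proteins that follows injury or infection. The liver is its main source: IL-6 and related cytokines act through the shared receptor subunit gp130, JAK kinases and STAT3, together with C/EBP factors, on genes that liver-enriched factors such as HNF1 hold active. Fibrinogen is assembled from all 3 of its chains and is cut by thrombin to form the fibrin clot. Epithelial cells outside the liver can also express several of these genes.

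The fibrinogen genes lie side by side on chromosome 4 in the order FGB, FGA and FGG, with no other protein-coding gene between them. Their promoters are shown because these neighbours carry the fibrinogen results. Each is the stretch of 250 bases before the RefSeq start site (GRCh38.p14), 5' to 3' on the gene's own strand. Capitals mark matches on either strand to CTGGGAA, the core of IL-6 response elements of type II, to TTCNNNGAA, a STAT palindrome, to GTTAAT, a half-site of HNF1, or to TTGCNNAA, a form of C/EBP site. None of the capitals below comes from overlapping matches.
FGB, chr4:154562730-154562979, plus strand: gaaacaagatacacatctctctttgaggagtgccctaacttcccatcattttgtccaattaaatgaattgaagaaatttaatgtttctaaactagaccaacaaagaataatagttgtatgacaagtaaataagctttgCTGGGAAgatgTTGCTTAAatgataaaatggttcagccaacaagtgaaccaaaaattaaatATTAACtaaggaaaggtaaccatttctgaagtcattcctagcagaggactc
FGA, chr4:154590743-154590992, minus strand: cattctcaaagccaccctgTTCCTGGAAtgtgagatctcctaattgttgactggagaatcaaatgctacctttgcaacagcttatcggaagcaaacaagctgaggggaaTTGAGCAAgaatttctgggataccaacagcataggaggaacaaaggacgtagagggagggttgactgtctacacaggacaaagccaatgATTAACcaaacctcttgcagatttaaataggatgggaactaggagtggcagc
FGG, chr4:154612657-154612906, minus strand: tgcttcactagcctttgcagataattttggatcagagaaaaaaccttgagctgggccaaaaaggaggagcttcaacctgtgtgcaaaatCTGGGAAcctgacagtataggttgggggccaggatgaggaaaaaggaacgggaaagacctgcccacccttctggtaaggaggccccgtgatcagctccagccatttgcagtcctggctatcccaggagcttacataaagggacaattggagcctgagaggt

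The FGB stretch held CTGGGAA starting 112 bases before the start site, TTGCTTAA at 101 and ATTAAC, the reverse complement of GTTAAT, at 51. FGA held TTCCTGGAA at 231, TTGAGCAA at 141 and ATTAAC at 52. FGG held CTGGGAA at 161 and no match to the other motifs. The table lists another FGB start site whose window holds the same 3 matches. Among 35116 such promoter windows, 9.2% held CTGGGAA, 6.6% TTCNNNGAA, 6.2% GTTAAT and 9.1% TTGCNNAA. The window of SERPINA3 held none of the motifs, 1 of the 2 SERPINA1 windows held GTTAAT 76 bases before its start site, and that of LCN2 held TTGCCCAA at 143. These matches describe the letters only. No promoter window was used for HP.

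Levels are intensities on the linear scale the authors deposited, and each is set against the median of all probe sets on its array, which ran from 58.7 to 85.4. As no detection calls were used, a value under that median is treated here as not told from background. The median is a chosen cut and not a measured limit of detection. Of the 130 member values, 74 lay below the median of their array: 27 of 52 in side population, 29 of 52 in non-side population and 18 of 26 in unsorted cells. FGG and 1 FGA probe set (205650_s_at) were above it on all 10 arrays, and FGB (204988_at) and SERPINA3 on all 8 sorted arrays. The SERPINA1 probe sets 202833_s_at and 211428_at and the HP probe set were below it on every array.

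**Figure D1:**
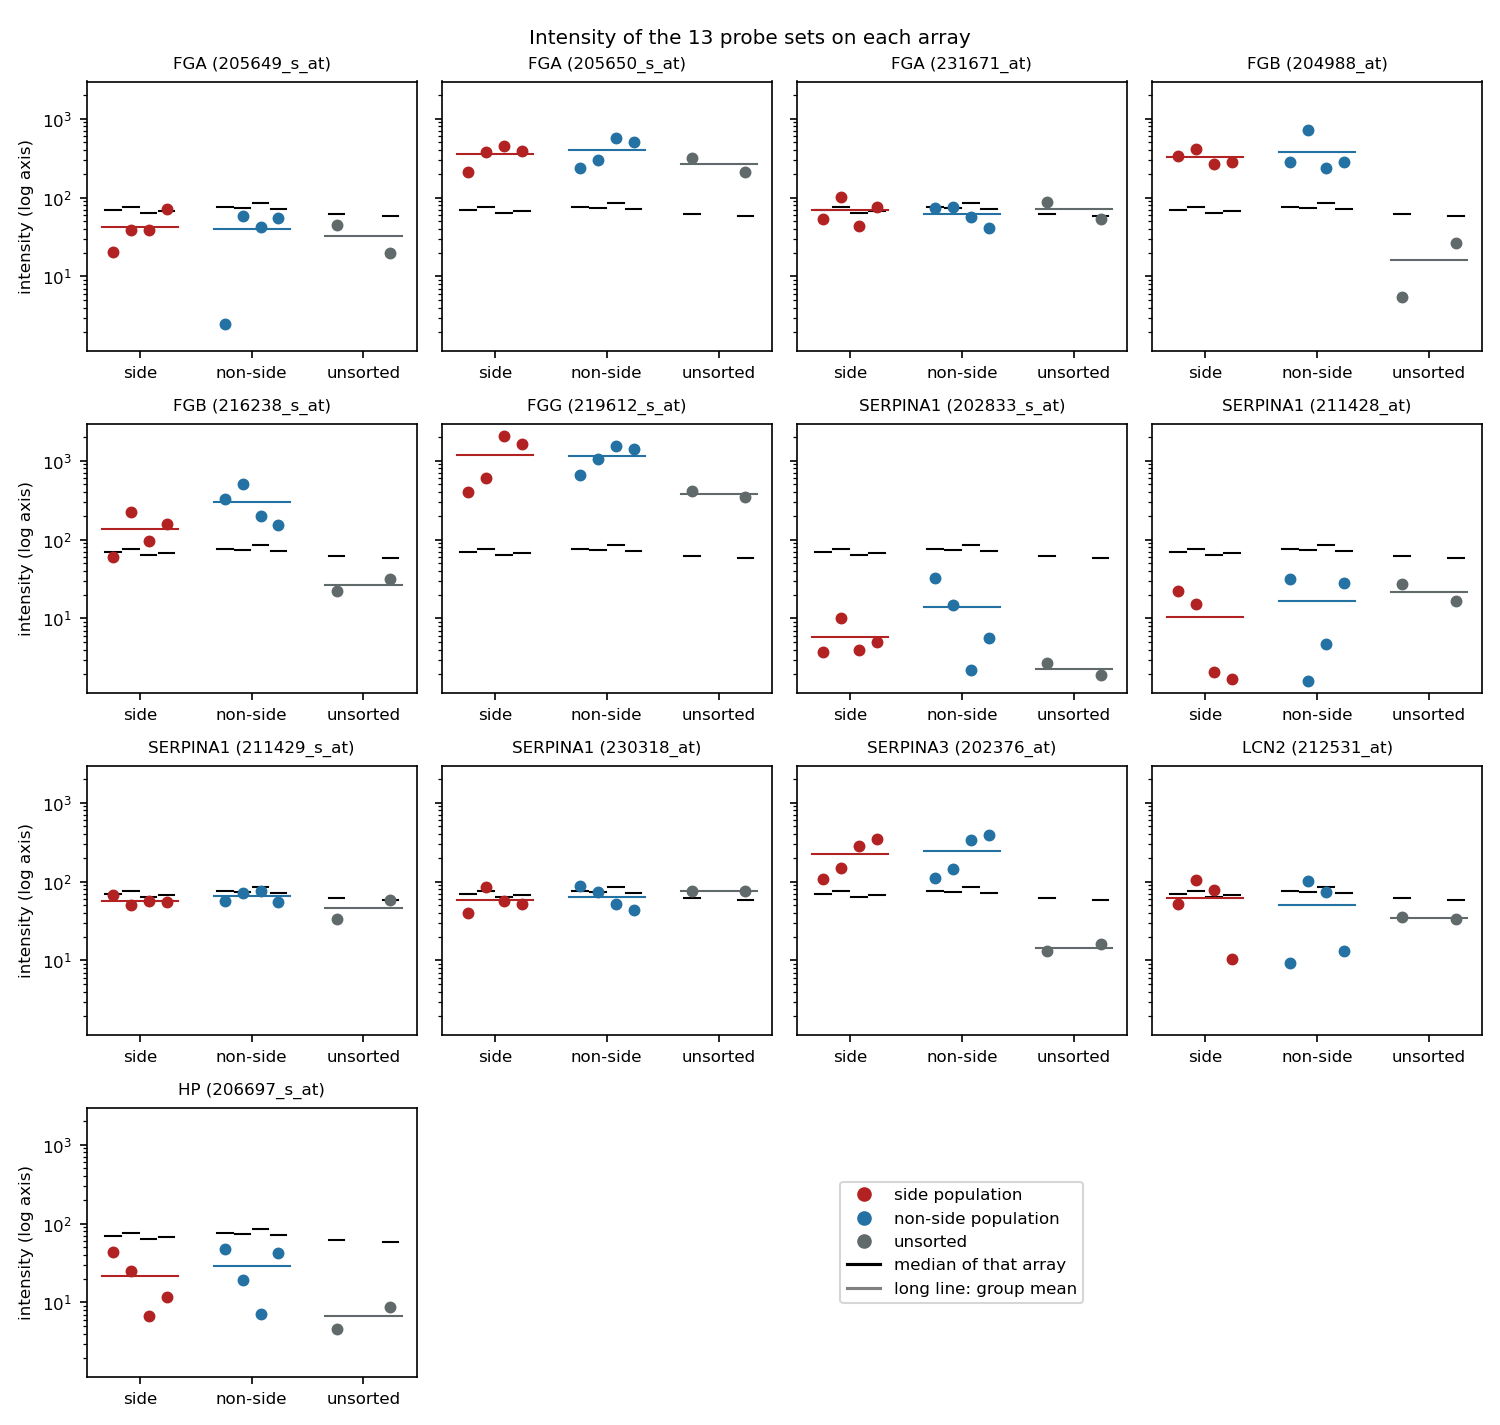
Intensity (log axis) of each of the 13 probe sets on the 4 side population, 4 non-side population and 2 unsorted arrays. Points are arrays in the order of their letters, long lines group means, and short black lines the median of all probe sets on that array. FGB and SERPINA3 lie above the black lines on sorted arrays (except FGB 216238_s_at in side population replicate a, 60.6) and below them on unsorted arrays, while most SERPINA1 values and all HP values lie below throughout.

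FGB, the beta chain, was well above the array medians in sorted cells and below them in unsorted cells. Its probe set 204988_at read 337, 413, 264.7 and 284.1 in side population replicates a to d. In non-side population replicates a to d it read 278.2, 710.4, 235.4 and 280.9. Unsorted replicates a and b read 5.4 and 26.4, below the medians of 60.9 and 58.7. Every sorted array was above both unsorted arrays, and the sorted populations overlapped. The group means were 325 ± 66.3 (SD, n = 4) in side population, 376 ± 224 (SD, n = 4) in non-side population and 15.9 ± 14.8 (SD, n = 2) in unsorted cells.

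The second FGB probe set, 216238_s_at, read 60.6, 225.9, 94.9 and 159.5 in side population replicates a to d. Non-side population replicates a to d read 328.6, 505.4, 198.7 and 154.8, and unsorted replicates a and b 22.3 and 31.4. It was lower in side population than in the non-side population array of the same letter for a, b and c, and about equal for d. Side population replicate a, at 60.6, was the only sorted array under its median, 70.4.

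FGG, the gamma chain, was measured well above the median in every group. It read 395, 601.5, 2066.7 and 1648.1 in side population replicates a to d, and 651.9, 1048.6, 1517 and 1385.1 in non-side population replicates a to d. Unsorted replicates a and b read 413.3 and 345.6. Side population replicate a lay between the unsorted arrays, and the other 7 sorted arrays lay above both. The means were 1178 ± 808 (SD, n = 4), 1151 ± 387 (SD, n = 4) and 379 ± 47.9 (SD, n = 2).

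FGA, the alpha chain, differed less between sorted and unsorted cells. Its brightest probe set, 205650_s_at, read 209.9, 373.1, 443.7 and 387 in side population and 239, 303.3, 575.1 and 501 in non-side population replicates a to d. Of the unsorted arrays, a read 317.7, inside the range of the sorted arrays, and b read 209, just under it. Probe set 205649_s_at ran from 2.5 to 71.1 and was below the median on 9 of 10 arrays, all but side population replicate d. Probe set 231671_at ran from 40.6 to 101.4 and was below the median on 6 arrays, so it lay near the median in every group.

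SERPINA3, alpha-1-antichymotrypsin, an inhibitor of neutrophil and mast cell proteases, had the pattern of FGB against unsorted cells. It read 107, 147.3, 282.3 and 350 in side population replicates a to d and 109.4, 142.3, 337.7 and 392 in non-side population replicates a to d. Unsorted replicates a and b read 13 and 15.9. All 8 sorted arrays were above their medians and both unsorted arrays below theirs, and arrays of the same letter in the sorted populations lay close together. The means were 222 ± 114 (SD, n = 4), 245 ± 140 (SD, n = 4) and 14.4 ± 2.05 (SD, n = 2).

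SERPINA1, alpha-1-antitrypsin, the main plasma inhibitor of neutrophil elastase, was below the median in most of its values. Probe set 202833_s_at ran from 1.9 to 32.5 and 211428_at from 1.6 to 31.3. Probe set 211429_s_at was below the median on 9 of 10 arrays, with 33.8 and 59.1 in unsorted and 49.7 to 76.6 in sorted cells. Probe set 230318_at ran from 39.8 to 87.1 and was below on 6 of 10, with both unsorted arrays (75.7 and 74.8) above. The sorted populations overlapped for all 4 SERPINA1 probe sets. The values of 202833_s_at were 3.8 to 10.2 in side population, 2.2 to 32.5 in non-side population and 1.9 to 2.7 in unsorted cells. All of them were under the medians, and the non-side population values overlapped the unsorted ones.

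LCN2, lipocalin 2, which withholds iron from bacteria by binding their siderophores, read 51.9, 104.9, 78.1 and 10.4 in side population replicates a to d. It read 9.3, 102.8, 73.4 and 13.2 in non-side population replicates a to d. The unsorted arrays read 35.1 and 33.7. It was below the median on 7 of 10 arrays. The same letter gave nearly the same value in both sorted populations for b, c and d, while letter a gave 51.9 against 9.3. HP, haptoglobin, which binds free haemoglobin, ran from 6.8 to 48.1 in sorted cells and was 4.6 and 8.8 in unsorted cells, all below the medians.

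No member differed between side and non-side population cells by the test. By limma, 0 of the 13 probe sets had an adjusted p under 0.05, where 0% of all 54613 probe sets did, the lowest adjusted p being 0.12. Without adjustment, 1 member of 13 had a p under 0.05, against 5.26% of all. The member was FGB 216238_s_at, with a log2 difference of -1.11 ± 0.45 (SE, n = 4 and 4, 95% interval -2.07 to -0.15, adjusted p = 0.926 by limma). It was also the only member to differ by at least 1 log2 unit, as 4.46% of all probe sets did. In subsets of the arrays others passed that size too: HP was at -1.01 and SERPINA1 211428_at at -1.18 with AGS-labelled arrays, 211428_at at -1.27 within letters c and d, and SERPINA1 202833_s_at at -1.16 within letters a and b. All of these values lie under the array medians. In the other direction, LCN2, below the median on most but not all arrays, was at 1.03 without side population replicate d. The other FGB probe set was at -0.08 ± 0.40 (interval -0.94 to 0.78), so the probe sets of this gene did not give the same difference. Without side population replicate a, whose RNA control ratios stood apart, 216238_s_at was at -0.80. It was at -1.73 within letters a and b (adjusted p = 0.224) and -0.49 within letters c and d (adjusted p = 0.974).

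The intervals of the other members left room for differences of up to a few fold in either direction. FGG was at -0.20 ± 0.45 (interval -1.17 to 0.76), SERPINA3 at -0.10 ± 0.47 (-1.10 to 0.91) and FGA 205650_s_at at -0.16 ± 0.33 (-0.86 to 0.55). LCN2 was at 0.45 ± 0.71 (-1.07 to 1.97) and HP at -0.33 ± 0.55 (-1.50 to 0.85). The SERPINA1 probe sets lay between -0.53 and -0.11. In all, 3 of the 13 probe sets were higher in side population cells (LCN2 and the FGA probe sets 205649_s_at and 231671_at), where 44.5% of all probe sets were. In 0 of 13 did the arrays of the populations fail to overlap, against 2.67% of all. With only the arrays labelled AGS, which leaves out side population replicates a and b, FGG turned to 0.75 (adjusted p = 0.854), SERPINA3 to 0.54 (0.921), FGA 205650_s_at to 0.12 (0.982) and LCN2 to -0.10 (0.995), by limma. That setting compares side population letters c and d with non-side population letters a to d, so label and letter cannot be told apart in it. Within letters c and d of both populations, FGG was at 0.35, SERPINA3 at -0.21, FGA 205650_s_at at -0.37 and LCN2 at -0.07.

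**Figure D2:**
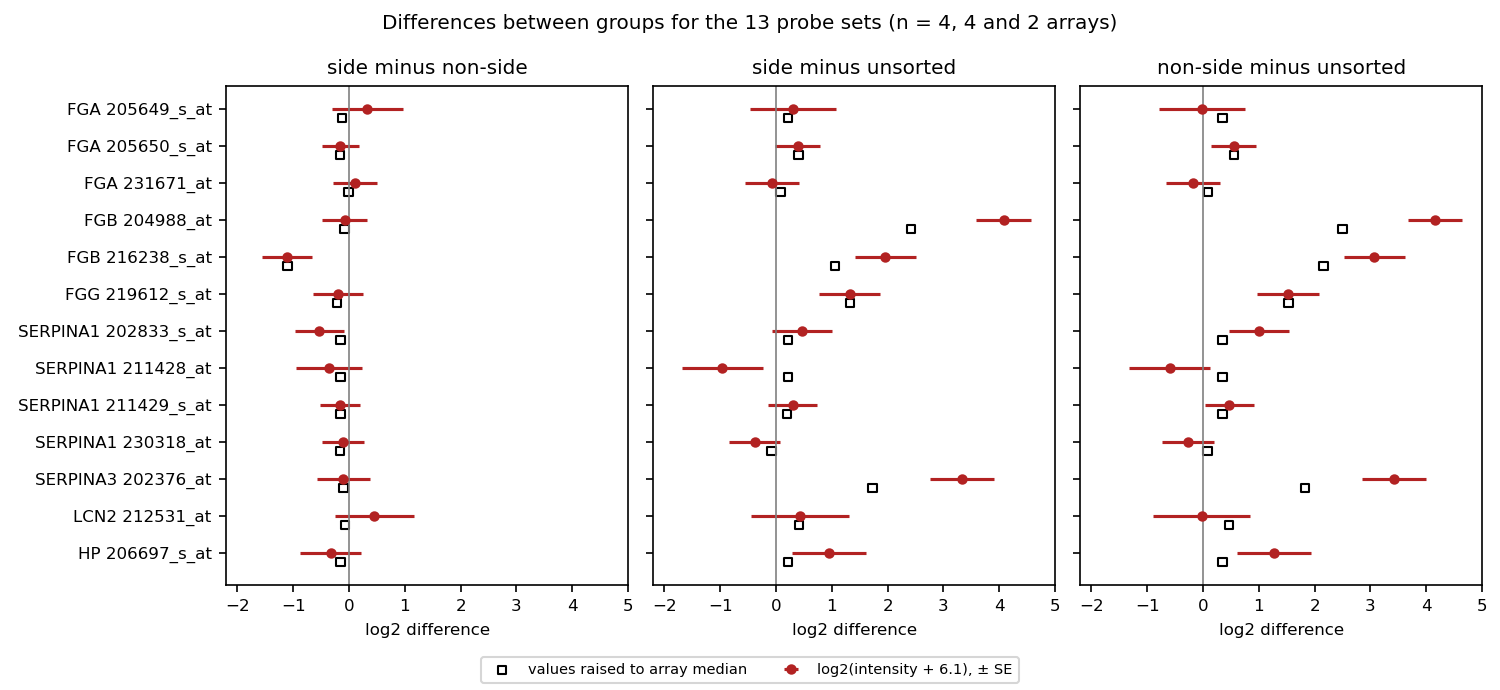
Log2 difference of each probe set between side and non-side population, side population and unsorted, and non-side population and unsorted cells. Filled points are differences of log2(intensity + 6.1) with the standard error of the fit (4, 4 and 2 arrays); open squares are differences after low values were lifted to the median of their array. Side minus non-side differences lie from -0.53 to 0.45 except for FGB 216238_s_at (-1.11). The open squares for FGB and SERPINA3 against unsorted cells are smaller than the filled points.

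Against unsorted cells, FGB, SERPINA3 and FGG had the largest values among the members, in both sorted populations. These contrasts share the 2 unsorted arrays and were in view when the genes were chosen, so nothing is read from the counts. On the log2 scale FGB 204988_at differed by 4.08 ± 0.49 in side and 4.16 ± 0.49 in non-side population cells. Without unsorted replicate a these were 3.33 and 3.41, and without unsorted replicate b 4.83 and 4.91. FGB 216238_s_at differed by 1.96 ± 0.55 and 3.07 ± 0.55, SERPINA3 by 3.33 ± 0.57 and 3.42 ± 0.57, and FGG by 1.32 ± 0.55 and 1.52 ± 0.55 (SE, n = 4 or 4 against 2). At least 1 log2 unit higher were 4 of 13 probe sets in side population cells (10.2% of all probe sets) and 5 of 13 in non-side population cells (13.2%), the fifth being HP. The median over all probe sets was 0.07 in the first contrast and 0.12 in the second. SERPINA1 202833_s_at, below the median on every array, rounded to 1 ± 0.54 in non-side population cells but was just short of the count. The count of 5 became 6 without non-side population replicate c and 4 without non-side population replicate a.

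Part of these sizes came from unsorted values under the median. After values under the median were lifted to it on each array, FGB 204988_at was at 2.42 and 2.50, FGB 216238_s_at at 1.06 and 2.16, SERPINA3 at 1.73 and 1.83, and FGG at 1.33 and 1.53. These 4 were then the members at least 1 log2 unit higher in each population (3.57% and 4.74% of all probe sets). HP, at 0.95 ± 0.67 and 1.27 ± 0.67, fell to 0.21 and 0.35, the values that probe sets below every median take from the unequal array medians. In 3 of 13 probe sets (both of FGB, and SERPINA3) all 8 sorted arrays were above both unsorted arrays, as in 9.67% of all. FGA 205650_s_at differed by 0.39 ± 0.40 and 0.55 ± 0.40, LCN2 by 0.43 ± 0.87 and -0.02 ± 0.87. FGG in side population cells was at 2.27 with only AGS-labelled arrays (letters c and d) and at 0.94 without side population replicate c. In bulk RNA a larger share of expressing cells and more RNA per cell cannot be told apart. Nor can a trait of the sorted cells be told apart from an effect of sorting, its handling or a batch.

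FGG, SERPINA3 and FGA 205650_s_at were higher in the sorted arrays of letters c and d than in those of letters a and b, in both populations. This division by letter came from earlier results of these arrays and is described without a test. For FGG, letters a and b ran from 395 to 1048.6 and letters c and d from 1385.1 to 2066.7, a log2 difference of 1.36 ± 0.26. For SERPINA3 the ranges were 107 to 147.3 and 282.3 to 392, with a difference of 1.39 ± 0.28. For FGA 205650_s_at they were 209.9 to 373.1 and 387 to 575.1, with 0.77 ± 0.25 (SE, n = 4 and 4, the populations fitted together). These 3 of 13 probe sets did not overlap between the letters in that direction, nor did 4.54% of all, and 2 of 13 were at least 1 log2 unit higher in letters c and d, as were 4.79% of all.

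FGB did not share this order. Its 204988_at values were 278.2 to 710.4 in letters a and b and 235.4 to 284.1 in letters c and d (-0.61 ± 0.36), and 216238_s_at was at -0.57 ± 0.42. LCN2 was at -0.59 ± 0.70, with its highest sorted values in letters b and c. Over the 8 sorted arrays, as a description, Pearson's r of log2 values was 0.868 between FGG and SERPINA3, 0.894 between FGA 205650_s_at and SERPINA3, and 0.797 between FGA 205650_s_at and FGG. The 8 arrays fall into the letter groups just described, which all 3 genes share.

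**Figure D3:**
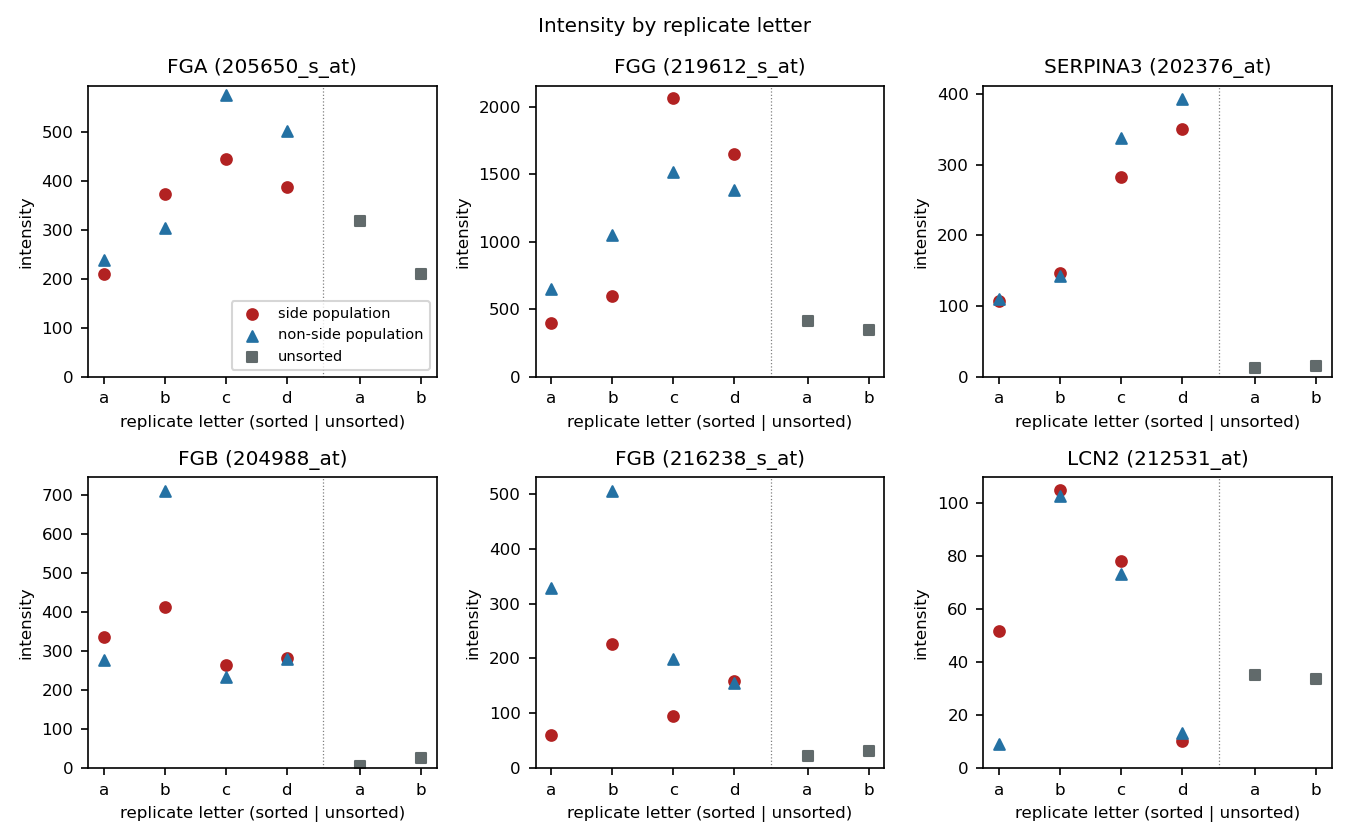
Intensity of 6 probe sets by replicate letter (linear axis from 0), with side population as circles, non-side population as triangles and, right of the dotted line, unsorted arrays as squares. FGG, SERPINA3 and FGA are higher in letters c and d of both sorted populations (SERPINA3 282.3 to 392 against 107 to 147.3), whereas FGB is highest in letter b.

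The RNA controls differed between arrays. The 5' control for 18S ribosomal RNA read 274.6 and 828.3 on the unsorted arrays and also low, 563 and 851.2, in non-side population replicate c and side population replicate d, against 22182.4 to 33704 elsewhere. In these 2 sorted arrays FGB 204988_at read 235.4 and 284.1 and SERPINA3 337.7 and 350. The part of this control in the members' values was not tested. The ratio of 3' to 5' signal for actin was 3.34 in side population replicate a and 0.987 to 1.28 on the other arrays. That replicate had the lowest FGB 216238_s_at, FGG, SERPINA3, FGA 205650_s_at and SERPINA1 230318_at values among sorted arrays. The remaining member probe sets were not lowest there. FGB 204988_at read 337, against 235.4 to 710.4 over all sorted arrays, and HP 43.7, against 6.8 to 48.1. The part of this ratio in the members' values was not tested.

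Markers of gastric epithelium and of other sources of acute-phase proteins were read beside the members. All 6 epithelial markers (EPCAM, KRT8, KRT18, KRT19, CDH1 and CLDN4) were above the median on every array. Of 6 hepatocyte markers, ALB, the defining plasma protein of hepatocytes, ran from 2.5 to 47.2 and APOB from 4.3 to 67. ALB was below the median on all arrays and APOB on all but 1 unsorted array. APOA1 ran from 80.6 to 537.5 and CYP3A4 from 96.2 to 318.6, both above the medians on all arrays. TTR was below on 1 array and AHSG on 7. The summed intensity of the 6 was 493 to 1003 in side population, 630 to 821 in non-side population and 451 to 672 in unsorted cells. Neutrophil granule genes (MPO, ELANE, LTF and CAMP) summed to 42.5 to 116 on sorted arrays and 66.5 to 104 on unsorted arrays, and 3 of 4, all but MPO, were below the median on all arrays. Of 6 measured blood markers, PTPRC and CD3E were below the median on all arrays and MPO on all but 1 unsorted array. HBB, at 85.1 to 232.7, was above it on 9 of 10 arrays. LYZ, which the gastric epithelium also makes, read 20246.8 to 32403.4 on the sorted arrays, and the list summed to 20564.5 to 32795.7 on sorted and 29003.9 to 29102.1 on unsorted arrays. CD14 was 26.7 to 112.1 in sorted and 6.2 and 20.1 in unsorted cells. Fibroblast and endothelial markers summed to 1337 to 2317 on sorted and 1540 to 2274 on unsorted arrays; COL1A2, COL3A1, VWF and CDH5 were below the median on all of them, and COL1A1 above. DCN was below on 7 arrays, and PECAM1, at 52.8 to 200.8, below on 2. The part of CD14, APOA1 or any other marker in the members' values was not tested.

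The wider acute-phase and clotting system was followed on 5 lists of 111 genes, of which 95 had a probe set of their own. By limma 0 of them had an adjusted p under 0.05 between side and non-side population. At an unadjusted p under 0.05 there was 1 of 21 other acute-phase proteins, 0 of 30 coagulation and fibrinolysis genes, 1 of 25 genes of IL-6 family signalling, 1 of 11 hepatocyte transcription factors and 0 of 9 other clade A serpins, against 4.38% of all 19775 genes. The list medians were -0.18, -0.10, 0.10, 0.20 and -0.30 in that order, beside -0.11 for the members (brightest probe set of each gene) and 0 for all genes.

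Among the other acute-phase proteins, C4BPB, a chain of a complement inhibitor, S100A9, a calcium-binding protein of inflamed tissue, and CFB, complement factor B, were brightest. C4BPB was at -0.24 ± 0.36 and CFB at -0.19 ± 0.39 between the sorted populations. S100A9 read 790 ± 546 in side population, 732 ± 424 in non-side population (SD, n = 4 each) and 144 in the mean of unsorted cells. Its log2 difference from unsorted cells was 2.09 ± 0.66 in side population cells. HAMP, the iron hormone hepcidin, was 95.7 to 116.5 in side population and 136 to 192.7 in non-side population cells with no overlap, a difference of -0.62 ± 0.28 (adjusted p = 0.944 by limma). ORM1, orosomucoid, at -0.94 ± 0.57, and HPR, at 0.72 ± 0.57, were below the medians of all sorted arrays. CRP and C3, named after their values were seen, ran from 1.6 to 23.1 and from 10 to 64.8.

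Of the signalling genes, JAK1, the kinase bound to gp130, was at 0.77 ± 0.29 between side and non-side population (adjusted p = 0.926 by limma), with 3532 ± 396 against 2261 ± 1175 (SD, n = 4 each). STAT3, the main transcription factor of the response, was at 0.63 ± 0.34, CEBPB at 0.06 ± 0.21, the phosphatase PTPN11 at 0.15 ± 0.21 and IL1RAP, a receptor subunit for interleukin 1, at -0.52 ± 0.30. None of these passed. GATA4, an endoderm factor, was at 0.83 ± 0.34 (adjusted p = 0.926 by limma), GATA6 at 0.46 ± 0.29, CEBPA at 0.38 ± 0.46, FOXA3 at 0.29 ± 0.21 and ONECUT1, below the median on all arrays, at -0.56 ± 0.72. Of the clotting genes, F7, coagulation factor VII, was at -1.19 ± 0.68, PROZ at -0.94 ± 0.52, PROS1, protein S, at -0.91 ± 0.54 and F5, factor V, at 0.38 ± 0.29. PROS1 was below the median on all 10 arrays and PROZ on 7 of 8 sorted arrays. Their differences are therefore largely between values treated as not told from background. F7 was below it on 3 of 4 side population and 1 of 4 non-side population arrays. Its difference therefore sets mostly such values in side population against mostly higher ones in non-side population cells. ANXA2 and S100A10, partners that bind plasminogen at the cell surface, were at 0.04 ± 0.27 and -0.09 ± 0.26. Among serpins, AGT, angiotensinogen, was at 0.45 ± 0.37, SERPINA7 and SERPINA9 each at -0.70 (SE 0.46 and 0.45), SERPINA2 at -0.49 ± 0.40 and SERPINA4 at -0.11 ± 0.48. SERPINA7 and SERPINA2 were below the median on all 10 arrays and SERPINA4 on 6 of 8 sorted arrays.

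Against unsorted cells, 4 of 21 other acute-phase proteins, 3 of 30 clotting genes, 4 of 25 signalling genes, 1 of 11 transcription factors and 0 of 9 serpins were at least 1 log2 unit higher in side population cells, where 7.87% of all genes were. In non-side population cells the counts were 6, 4, 3, 1 and 2, against 9.58% of all genes. Picked after their values were seen, IL11, a cytokine that signals through gp130, was 190.4 to 413.4 on sorted arrays and 50.3 and 68.8 on unsorted arrays, and SOCS3, the feedback inhibitor of this pathway, 852.3 to 1775.1 and 465.9 to 640.9. SERPING1, the C1 inhibitor, was 48.8 to 201.4 in sorted and 17.7 and 25 in unsorted cells. Both unsorted values and 1 non-side population value of SERPING1 were below the array medians. Its log2 differences from unsorted cells were 2.07 in side and 2.36 in non-side population cells. With low values lifted to the array median they were 0.85 and 1.3. IL11 and SOCS3 did not overlap between sorted and unsorted arrays, nor did SERPING1. All 8 sorted arrays were above both unsorted arrays in 9.67% of all probe sets. JAK2 and GATA6, also picked after their values were seen, were lower on sorted arrays with no overlap. The share of all probe sets with no overlap in this direction was not counted. JAK2 was 101.4 to 198.3 on sorted arrays and 227.5 and 271 on unsorted arrays. GATA6 was 1036.3 to 3082.5 on sorted arrays and 7596.6 and 8426.2 on unsorted arrays.

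**Figure D4:**
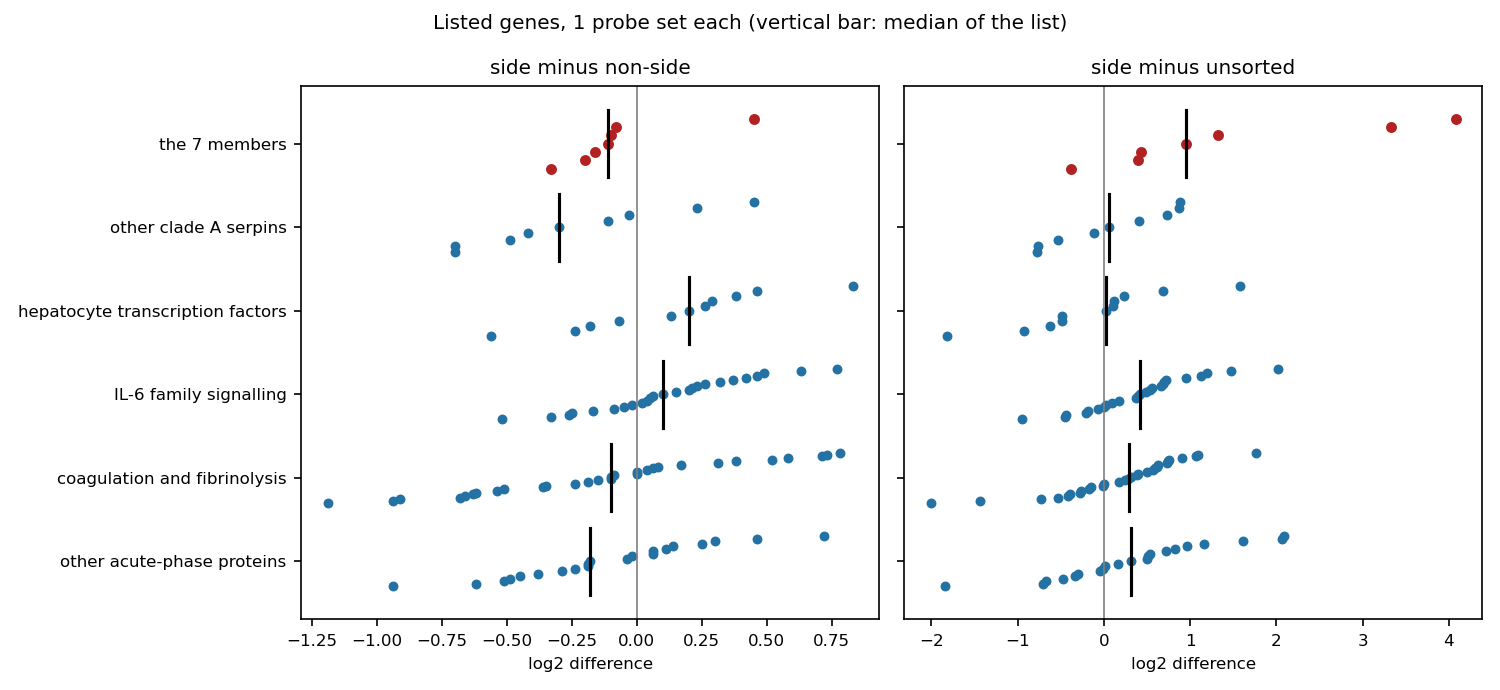
Log2 difference between side and non-side population (left) and between side population and unsorted cells (right) for the listed genes (blue) and the 7 members (red), 1 probe set per gene, with the median of each list as a vertical bar. Between the sorted populations the list medians lie from -0.30 to 0.20; against unsorted cells FGB and SERPINA3 are at 4.08 and 3.33, or 2.42 and 1.73 with low values lifted to the array median, where S100A9 is at 2.13 and IL11 at 1.99.

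The genes nearest in pattern to the members over the 8 sorted arrays were taken from 9888 genes at or above the median gene level, by Pearson's r of log2 values, as a description. For FGG they were UBE2L6 (r = 0.980), SPINK4 (0.971), NUDT7 (0.969) and BST2 (0.967), and over all 10 arrays their r was 0.979, 0.776, 0.910 and 0.915. For SERPINA3 they were CMPK2 (0.986), AGGF1 (0.978), LYZ (0.976) and C9orf152 (0.975), of which over 10 arrays CMPK2 had 0.944 and the others -0.084, 0.145 and 0.155. For FGB 204988_at they were WDR53 (0.969), NRBF2 (0.961), CLP1 (0.960) and ELOF1 (0.943), with 0.461, -0.042, 0.213 and 0.331 over 10 arrays. For LCN2 they were DRC8 (0.937), E2F7 (0.929), SKIC3 (0.915) and ZNF12 (0.907), and for SERPINA1 230318_at MED18 (0.970), FBXO3 (0.928), TRA2A (0.923) and PMCH (0.910). All of these rest on 8 arrays that share the letter groups, and LCN2 and SERPINA1 lay near or under the medians.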

How the data were processed

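The 10 arrays were analysed from the intensities the authors deposited, on a linear scale. The submitters' processing notes name GCOS 1.4; which of its algorithms made them is not known here, and no detection calls were used. The mean with 2% trimmed at each end was 500.065 to 500.095 on every array, so the values were already scaled, and no further scaling was applied. No pair of arrays was identical.

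GEO's platform annotation gave gene symbols (41097 with 1 symbol, 1801 with several, 11777 with none). The number of arrays limits the precision. Intensities were raised by 6.1, their 10th percentile over all arrays, before log2, which understates changes of dim genes. All 54613 probe sets that are no AFFX control (62 were left out) were fitted with limma 3.58.1 in R 4.3.3 (3 groups, eBayes with a trend), with no filter on intensity, since the rule takes every probe set; Benjamini-Hochberg adjusted p under 0.05 was the threshold. The scripts were tested on simulated data.

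The members and lists were chosen with earlier results of these data known. For each list, the 3 genes of largest difference between the sorted populations and the 3 brightest were named; for likeness, the 4 genes of highest r. Alternatives were other constants, values raised to the array median, quantile normalization, filters, 1 probe set per gene, eBayes without a trend, AGS-labelled arrays, compared groups only, the letters as blocks or terms, and leaving out each array. The division of letters a and b against c and d, as a difference, was added after the data were seen.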

Additional observations from a re-analysis of the deposited data

Results flagged for a closer look

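In 2 of 26 groups of 4 arrays (13 probe sets in each sorted population), 1 array stood apart on the log2 scale, the gap to its nearest neighbour exceeding Dixon's 95% critical value. Chance alone sets about 1 in 20 groups apart in this way. FGB 204988_at read 710.4 in non-side population replicate b, against 235.4 to 280.9 in the other 3 arrays; without that array the side minus non-side difference was 0.27 in place of -0.08. FGA 205649_s_at read 2.5 in non-side population replicate a, against 42.1 to 58 in the other 3 arrays, and all 4 values of that group were below the array medians.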

How the results depend on the processing

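The count of 0 probe sets called between side and non-side population was 8 with values raised to the array median and 1 within letters a and b, and 0 to 1 leaving out 1 array. It was 0 with the replicate letter as a replicate block (smallest adjusted p 0.212); the titles put sorted arrays in replicate groups by letter without saying what a group shares, and deviations from the group mean correlated at 0.127, 0.413, -0.027 and 0.239 for letters a to d. Since letter c was not above 0.1, and c and d of side population correlated best with d and c of non-side population, the letters were not taken as pairs. With 1 probe set per gene at or above the median, 2 member probe sets were at least 1 log2 unit above unsorted cells in each sorted population (2 and 2), with fewer tested by construction. Those counts, 4 and 5 with all probe sets, kept within 1.5 times otherwise.

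No member was called between the sorted populations under any alternative run. Of the 13 differences, 2 kept their sign throughout and 11 turned in some. They turned with values raised to the array median for FGA 205649_s_at (-0.13), FGA 231671_at (-0.01) and LCN2 (-0.07); with quantile normalization for SERPINA1 230318_at (0.03); and with AGS-labelled arrays for SERPINA3 (0.54), FGG (0.75), FGA 205650_s_at (0.12), FGA 231671_at (-0.05) and LCN2 (-0.10). Within letters a and b they turned for SERPINA3 (0.01), FGA 205650_s_at (0.06), FGA 231671_at (-0.02), HP (0.09) and SERPINA1 211428_at (0.54), and within letters c and d for SERPINA1 202833_s_at (0.10), SERPINA1 230318_at (0.19), FGB 204988_at (0.09), FGG (0.35) and LCN2 (-0.07). Leaving out 1 array, the ranges were -0.35 to 0.62 for FGA 205649_s_at, -0.38 to 0.07 for FGA 205650_s_at, -0.09 to 0.29 for FGA 231671_at, -0.25 to 0.27 for FGB 204988_at, -0.58 to 0.21 for FGG, -0.29 to 0.04 for SERPINA1 230318_at, -0.41 to 0.19 for SERPINA3 and -0.01 to 1.03 for LCN2; for HP and SERPINA1 202833_s_at, with no turn of sign, they were -0.73 to -0.02 and -0.87 to -0.13. The cause was not tested. The 2 unsorted arrays and the many values under the median limit all differences from unsorted cells.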
